A study of Mus musculus with 7 samples.

Results

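The 10 genes described here encode transcription factors, most of which cells switch on quickly when they meet a growth factor, serum or stress. They are Fos, Fosb, Fosl1 and Fosl2 of the Fos family, Jun, Junb and Jund of the Jun family, Atf3, Egr1 and Myc. The genes were listed by symbol, but with earlier results of these data known, so counts of members and of listed targets are descriptions. All 10 were present among the 18145 genes of the deposited table, and all 10 passed the filter on low values, so each was tested.

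The libraries were made from total RNA of mouse neural stem cells at the first passage. The cells came from 2 lines of the TMut genotype, 2 lines of the TFoCa genotype and 3 wild-type (WT) lines, with 1 library per line. The design text also writes the mutant genotypes as Tet-TMut and Tet-FoCa. TET enzymes oxidise 5-methylcytosine in DNA, first to the hydroxymethyl form and then to the formyl and carboxyl forms, and the series asks what the early and the late products each do in these cells. Which alleles each mutant genotype carries, the mouse strain, the culture medium and whether lines of 1 genotype came from separate embryos are not given in the sources used here. The p-values therefore measure the spread between these lines. Since whole cultures were sequenced, fewer expressing cells and less RNA per cell cannot be told apart.

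AP-1 is a pair of bZIP proteins. A Jun protein binds DNA with another Jun protein, with a Fos protein or with an ATF protein such as ATF3, whereas Fos proteins need a Jun partner. The pair recognises the TPA response element or the related cyclic AMP response element, and c-Fos and c-Jun are the strongest activators among the members, while JUNB and JUND often act more weakly or in opposition. EGR1 is a zinc finger factor that binds GC-rich promoters and switches on its own corepressor NAB2. MYC pairs with MAX at E-boxes and is known for driving ribosome production and growth. In the developing brain, growth factor signalling through ERK induces Fos, Egr1 and their relatives, and MYC family proteins keep neural progenitors dividing.

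Promoter sequences were matched for 7 of the 10 genes in a RefSeq table of the GRCm38.p6 build, which spans 250 bases before to 50 bases after each annotated start. The 4 shown here set 2 genes that rose in mutant lines (Fosl2 and Junb) beside their best-known relatives, which were called in no comparison of all 7 libraries (Fos and Jun). The capitals mark every match to the searched motifs. Fosl2 lies on the plus strand at chr5:32136222-32136521, Junb on the minus strand at chr8:84978699-84978998, Fos on the plus strand at chr12:85473640-85473939 and Jun on the minus strand at chr4:95052173-95052472.
Fosl2: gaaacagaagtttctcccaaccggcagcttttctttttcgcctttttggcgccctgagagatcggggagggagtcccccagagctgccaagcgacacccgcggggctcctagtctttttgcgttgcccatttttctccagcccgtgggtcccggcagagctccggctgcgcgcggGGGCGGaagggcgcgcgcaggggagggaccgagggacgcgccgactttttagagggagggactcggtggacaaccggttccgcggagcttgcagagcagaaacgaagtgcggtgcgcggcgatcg
Junb: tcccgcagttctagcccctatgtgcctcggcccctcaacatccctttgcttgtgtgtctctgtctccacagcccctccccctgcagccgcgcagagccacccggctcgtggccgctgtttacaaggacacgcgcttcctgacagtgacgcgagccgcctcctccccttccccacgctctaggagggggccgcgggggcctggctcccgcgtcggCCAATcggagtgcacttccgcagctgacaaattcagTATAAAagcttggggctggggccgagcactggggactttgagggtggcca
Fos: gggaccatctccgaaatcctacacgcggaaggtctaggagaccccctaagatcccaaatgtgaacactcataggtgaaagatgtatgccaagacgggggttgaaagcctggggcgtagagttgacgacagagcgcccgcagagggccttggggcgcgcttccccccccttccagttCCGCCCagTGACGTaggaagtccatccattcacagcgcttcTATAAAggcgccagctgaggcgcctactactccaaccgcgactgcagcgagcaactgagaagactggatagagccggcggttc
Jun: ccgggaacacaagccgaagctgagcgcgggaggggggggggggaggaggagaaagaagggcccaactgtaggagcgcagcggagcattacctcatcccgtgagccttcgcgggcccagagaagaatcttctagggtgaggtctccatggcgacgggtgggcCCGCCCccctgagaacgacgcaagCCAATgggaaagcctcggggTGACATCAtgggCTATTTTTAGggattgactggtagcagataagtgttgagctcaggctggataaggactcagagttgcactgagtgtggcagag
The search covered both strands for 10 motifs. Those bound by AP-1 and related bZIP factors were the TPA response element, spelled TGACTCA, and the cyclic AMP response element, spelled TGACGTCA. The core of the second was searched by itself as TGACGT, so that every match to the full element is also a match to the core. A variant site known from the Jun promoter was searched as TGACATCA. The E-box, where MYC and MAX bind, was searched as CACGTG. General promoter elements were a TATA element searched as TATAAA, the GC box searched as GGGCGG and the box named by its letters CCAAT. The CArG box bound by SRF and the MEF2 site were also searched.

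The Fos promoter held the core from 66 to 61 bases before the start and a TATA element from 33 bases before it. The Jun promoter held the Jun-type site from 45 bases before the start and a MEF2 site from 33 bases before it. Junb had a CCAAT box 36 bases before the start, with a TATA element on the first 6 transcribed bases as annotated. Fosl2 had a single match, a GC box that begins 75 bases before the start. The TPA response element was found in none of the 7 promoters and in 5.20% of the 32851 promoters in the table. Of the same promoters, 7.51% held the core, 3.62% the Jun-type site, 13.6% the TATA element, 35.7% the GC box, 37.4% the CCAAT box and 3.19% the MEF2 site. The full cyclic AMP element (1.79% of promoters), the E-box (7.15%) and the CArG box (1.63%) had no match in the 7 windows. These are letter matches in 1 window and not tested sites, and sequence more than 250 bases before the start was not searched.

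The libraries held 33340167 to 62545457 reads in genes, and the values are the authors' normalized counts, which are gene counts divided by a size factor for each library. In a principal component plot of all genes, TMut libraries stood away from the rest on component 1 (55.2% of variance) and TFoCa away from WT on component 2 (22.6%). Sums over marker lists differed between genotypes. Mesenchymal and fibroblast markers summed to 336954 to 427645 normalized counts in TMut, 472044 to 524414 in TFoCa and 182267 to 197803 in WT, with 21 of 21 markers measured. Neural stem cell markers summed to 138189 to 164887, 169738 to 180551 and 196301 to 203167 in the same order, with 14 of 14 measured, so the labelled cell type showed its markers in every library. Neuronal markers summed to 12566.5 to 21073.8 in TMut, 57795 to 62653 in TFoCa and 78204 to 83443 in WT, with 12 of 12 measured. Pluripotency markers summed to 13577 and 56417 in the TMut libraries, 931 and 1127 in TFoCa, and 12423 to 25460 in WT, with 8 of 8 measured. Endothelial markers summed to 1383 to 1878 in TMut, 764 to 1871 in TFoCa and 1820 to 2291 in WT, with 6 of 6 measured, and of 8 microglial markers only Cd68 was in the table. Heat shock genes summed to 392157 and 471219 in TMut, 245401 and 301886 in TFoCa, and 304719 to 331957 in WT. The part of these differences in the results below was not tested.

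Per kilobase of each gene's longest annotated transcript, Jund was the most abundant of the 10 in every genotype. It averaged 6381 ± 827 normalized counts per kilobase in TMut, 7158 ± 1228 in TFoCa and 7915 ± 269 in WT (SD, n = 2, 2 and 3). In WT the order of mean levels per kilobase was then Jun (2869 ± 423), Egr1 (1760 ± 338), Junb (901 ± 153), Fos (868 ± 264), Atf3 (367 ± 230.0), Myc (288 ± 39), Fosb (154 ± 34), Fosl2 (124 ± 7.5) and Fosl1 (3.15 ± 0.69). Junb and Fos overlapped in their WT libraries, as did Atf3 with Myc, Fosb and Fosl2, and Fosb with Fosl2. In the mutant lines the order was different. Fosl2 stood seventh at 466 ± 88 in TMut and 491 ± 124 in TFoCa. Myc stood sixth at 1169 ± 242 in TMut and 713 ± 4.2 in TFoCa, and Egr1 stood second in TMut at 3688 ± 152. Libraries of Myc overlapped those of Fos in both mutant genotypes, and Fosl2 overlapped Atf3 in TFoCa, so these ranks are not resolved.

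**Figure D1:**
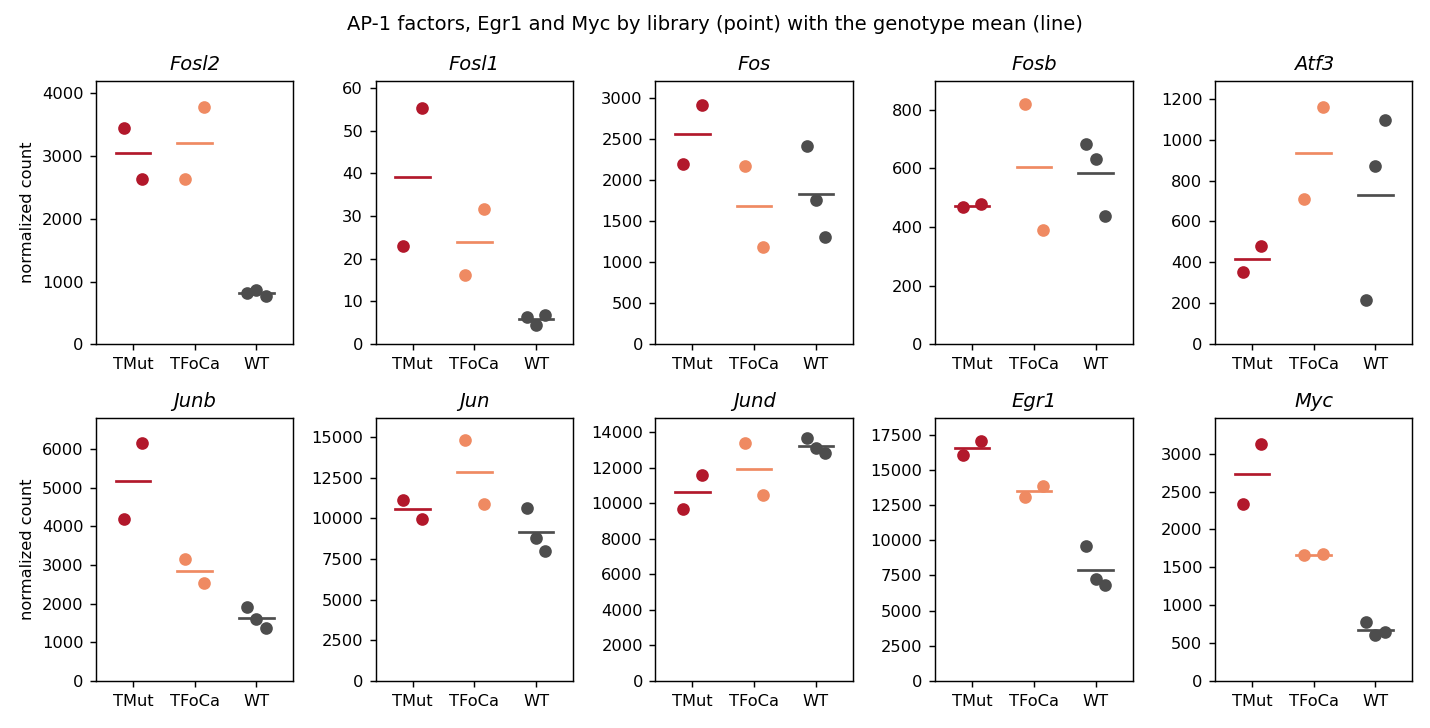
Normalized counts of the 10 genes, 1 panel per gene, with a point for each library of TMut, TFoCa and WT and a line at the genotype mean. Axes start at 0. In the Fosl2, Fosl1, Junb, Egr1 and Myc panels all TMut and TFoCa points lie above all WT points, and in the Fos, Fosb and Atf3 panels the mutant lines overlap WT.

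Across the 10 genes, limma with Benjamini-Hochberg adjustment over 18134 genes called 5 higher in TMut than in WT (Fosl2, Fosl1, Junb, Egr1 and Myc) and 0 lower, at adjusted p under 0.05. Of all genes tested, 18.4% were called higher and 20.4% lower in that comparison. TFoCa against WT gave 3 called higher (Fosl2, Egr1 and Myc) and 0 lower, where 5.25% of all genes were called higher and 3.52% lower. At an unadjusted p under 0.05, 5 of the 10 were higher and 1 (Jund) was lower in TMut than in WT, where 23.9% of all genes were higher and 25.0% lower at that threshold. In TFoCa against WT 6 were higher and 0 lower, against 12.8% and 12.7% of all genes, and in TMut against TFoCa 2 were higher and 0 lower, against 22.8% and 23.9%. Both comparisons use the same WT libraries, so they are not independent of each other. TMut against TFoCa gave 2 called higher (Junb and Myc) and 0 lower, against 17.3% and 18.5% of all genes. Libraries were higher without overlap for 5 of the 10 genes in TMut against WT, where the share over all genes was 33.4%. They were so for 6 in TFoCa against WT (21.0% of all genes) and for 4 in TMut against TFoCa (33.9%). Jund in TMut against WT and Atf3 in TMut against TFoCa were lower without overlap, for which no share over all genes was counted. The median log2 fold change of the 10 was 0.80 in TMut against WT, 0.70 in TFoCa against WT and 0.12 in TMut against TFoCa, while that of all genes tested was between -0.02 and 0.00.

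**Figure D2:**
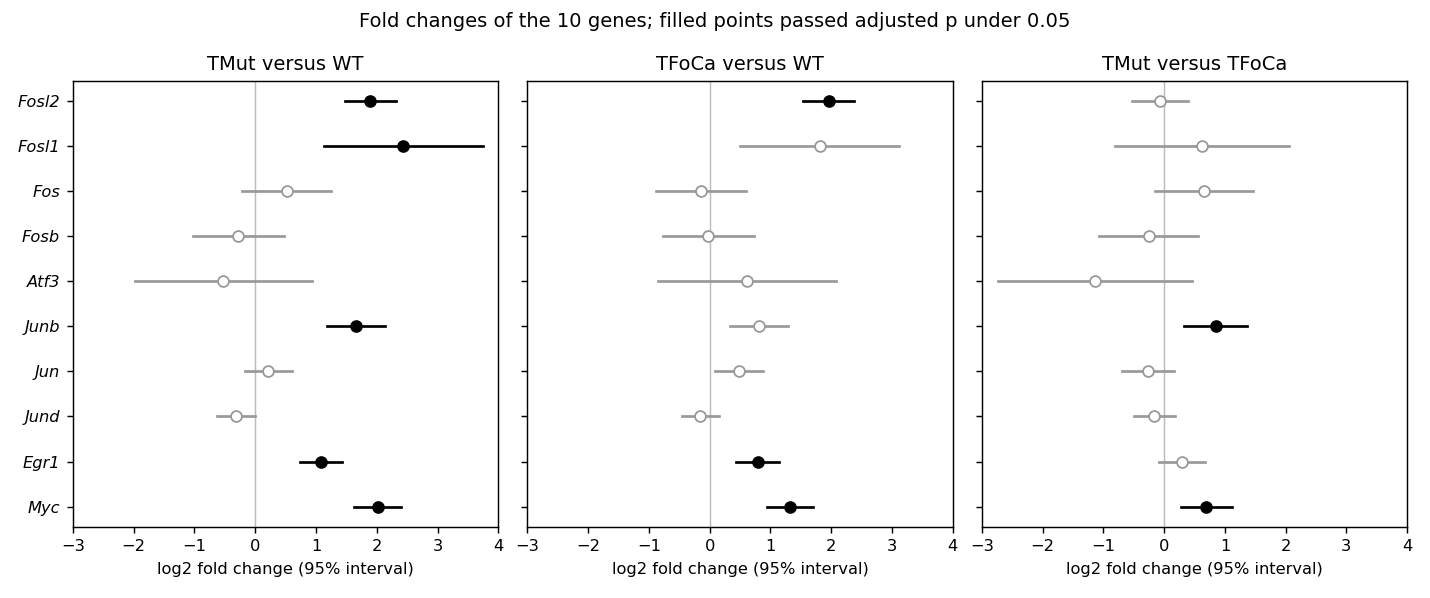
Log2 fold changes of the 10 genes in TMut versus WT, TFoCa versus WT and TMut versus TFoCa, with 95% intervals. Filled points passed adjusted p under 0.05. Fosl2, Egr1 and Myc are filled in both panels against WT, and Junb and Myc in the panel that sets TMut against TFoCa.

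Among the Fos family, whose proteins supply the partner that a Jun protein needs for strong DNA binding, Fosl2 rose in both mutant genotypes. It encodes FRA2, a Fos relative that lacks the strong activation domain of c-Fos. Fosl2 had 3452 and 2642 normalized counts in TMut, 2637 and 3784 in TFoCa, and 814, 860.2 and 762 in WT. Every mutant library was above every WT library, and TMut and TFoCa overlapped. On the log2 scale the change was 1.90 ± 0.18 (SE) in TMut against WT (adjusted p = 0.000315, limma) and 1.96 ± 0.18 in TFoCa against WT (adjusted p = 0.00242), which is 3.75-fold and 3.95-fold in the means. TMut and TFoCa differed by -0.06 ± 0.20 with a 95% interval of -0.52 to 0.40.

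Fosl1 encodes FRA1, the other Fos relative without the c-Fos activation domain. It was scarce, with 23.0 and 55.2 normalized counts in TMut, 16.3 and 31.6 in TFoCa, and 6.28, 4.44 and 6.90 in WT. The mutant libraries again lay above WT without overlap, on only 130 reads over the 7 libraries. Its log2 fold change was 2.44 ± 0.56 in TMut against WT (adjusted p = 0.0116, limma) and 1.81 ± 0.56 in TFoCa against WT, which did not pass (adjusted p = 0.0883). The TMut call was lost without TMut replicate 2 (1.82, adjusted p = 0.0873). Exons of Ccdc85b on the opposite strand cover 57.2% of the Fosl1 exon bases, and whether reads were counted by strand is not given, so reads of the pair cannot be told apart. Ccdc85b had 2112 and 2771 normalized counts in TMut, 1694 and 1179 in TFoCa, and 1506, 1595 and 1509 in WT.

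Fos encodes c-Fos itself. It had 2200.0 and 2925 normalized counts in TMut, 2171 and 1190.4 in TFoCa, and 2415, 1766 and 1309 in WT, and all genotypes overlapped except TMut with TFoCa. The log2 fold change was 0.52 in TMut against WT (95% interval -0.22 to 1.25, adjusted p = 0.232, limma) and -0.14 in TFoCa against WT (-0.88 to 0.59, adjusted p = 0.824). Neither change passed, and the intervals leave room for a change of either sign. Fosb, a c-Fos relative with a shorter splice form known as delta FosB that persists in neurons, had 468 and 478 normalized counts in TMut, 819.9 and 389 in TFoCa, and 683, 631 and 437 in WT. Its log2 fold change was -0.28 (-1.03 to 0.47) in TMut and -0.02 (-0.77 to 0.73) in TFoCa against WT, and the libraries overlapped in both.

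The summed Fos family level per kilobase was 1708 and 1948 normalized counts in TMut, 1659 and 1264 in TFoCa, and 1454, 1138 and 857 in WT. Fosl2 made up 30.9% and 20.8% of that sum in TMut, 24.3% and 45.8% in TFoCa, and 8.57%, 11.6% and 13.6% in WT. The share of Fosl2 was thus higher in every mutant library than in any WT library. Fos made up 61.1% and 71.2% in TMut, 62.1% and 44.7% in TFoCa, and 78.8%, 73.6% and 72.5% in WT, with every mutant library below WT. Fosb held 6.49% to 14.6% and Fosl1 at most 1.52% in any library. Shares are fixed to add up, so these are not separate measurements of each gene.

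In the Jun family, Junb rose in TMut. JUNB binds the same sites as c-Jun and is a weaker activator at many of them. Junb had 4195 and 6147 normalized counts in TMut, 3148 and 2528 in TFoCa, and 1916, 1612 and 1364 in WT. The 3 genotypes formed separate steps without overlap. Junb rose by 1.65 ± 0.21 on the log2 scale in TMut against WT (adjusted p = 0.000859, limma). Its change of 0.80 ± 0.21 in TFoCa against WT did not pass (adjusted p = 0.0520), though edgeR (0.0495) and DESeq2 (0.00511) on the recovered reads called it. TMut exceeded TFoCa by 0.85 ± 0.22 (adjusted p = 0.0230). Without TFoCa replicate 2 (0.69, adjusted p = 0.0884) or TMut replicate 2 (0.57, adjusted p = 0.13) it was not called. Prdx2 on the opposite strand shares 7.52% of the Junb exon bases and had 19503 and 18382 normalized counts in TMut, 18559 and 16206 in TFoCa, and 26582, 22318 and 24808 in WT.

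Jun, which encodes c-Jun, the target of JNK kinases, was abundant everywhere. It had 11157 and 9958 normalized counts in TMut, 14849.7 and 10873 in TFoCa, and 10639, 8794 and 8011 in WT. TMut overlapped WT, and TFoCa lay above WT by a narrow gap. Neither change passed, with log2 values of 0.21 ± 0.17 in TMut (adjusted p = 0.345, limma) and 0.48 ± 0.17 in TFoCa (adjusted p = 0.119) against WT, and the second passed without TFoCa replicate 2 (0.71, adjusted p = 0.0462). The antisense transcript Junos shares 7.28% of the Jun exon bases and had at most 65.7 normalized counts in any library.

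Jund, the least inducible Jun gene, had 9668 and 11619 normalized counts in TMut, 13388 and 10490.5 in TFoCa, and 13695, 13095 and 12818 in WT. Both TMut libraries were below all WT libraries, while TFoCa overlapped WT. The log2 fold change of -0.32 ± 0.13 in TMut against WT had an adjusted p of 0.0948, and that in TFoCa against WT was -0.16 ± 0.13 (adjusted p = 0.515, limma). The TMut value passed the threshold without TFoCa replicate 1 (adjusted p = 0.039) or replicate 2 (0.0388). Gm11175 on the opposite strand covers 52.6% of the Jund exon bases, and no gene of that symbol was in the deposited table. Whether reads were counted by strand is not given, so reads of Gm11175 and Jund cannot be told apart.

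Summed per kilobase, the Jun family overlapped between genotypes, with 11614 and 13486 normalized counts in TMut, 14423 and 11096 in TFoCa, and 12605, 11499 and 10951 in WT. Its make-up did not overlap for Junb and Jund. Junb held 20.0% and 25.2% of the sum in TMut, 12.1% and 12.6% in TFoCa, and 8.40%, 7.75% and 6.89% in WT. Jund held 49.9% and 51.7% in TMut, 55.6% and 56.7% in TFoCa, and 65.1%, 68.3% and 70.2% in WT. For both genes the 3 genotypes formed steps without overlap, upward from WT for Junb and downward for Jund. The share of Jun was 23.2% to 30.1% in TMut, 30.7% to 32.3% in TFoCa and 22.9% to 26.5% in WT.

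**Figure D3:**
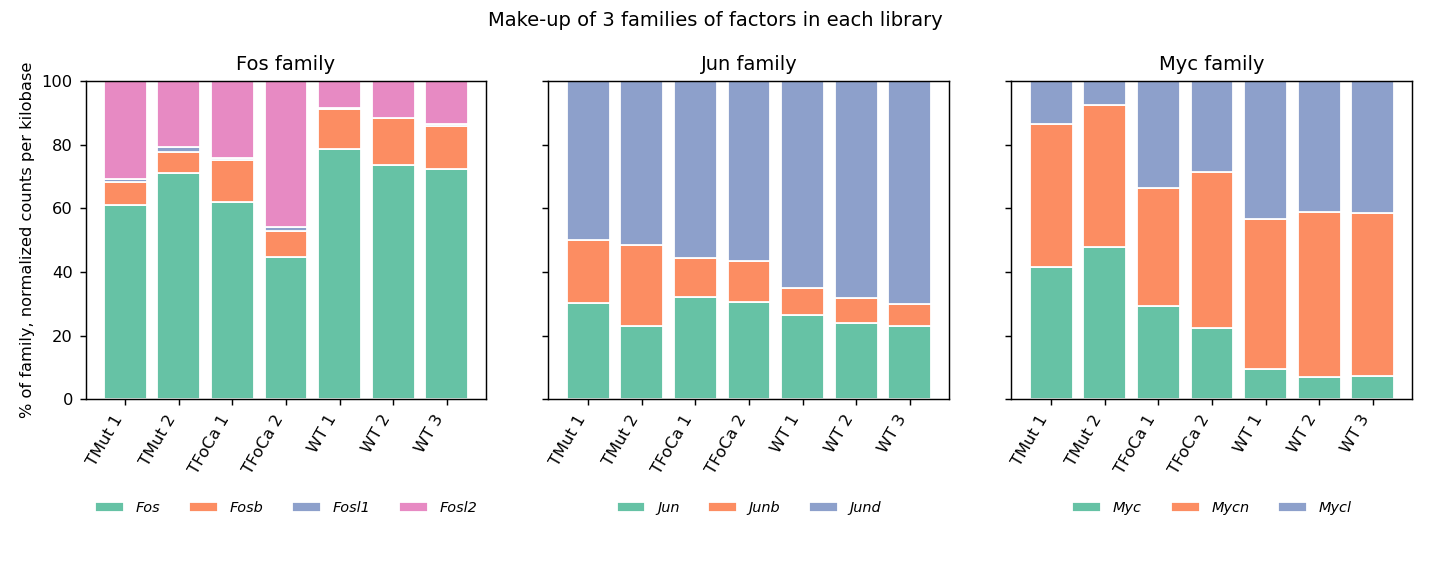
Share of each gene, in percent, of the summed normalized counts per kilobase of the Fos, Jun and Myc families, with a stacked bar for each library. Fosl2 holds 20.8% to 45.8% of the Fos family in mutant libraries and 8.57% to 13.6% in WT, Jund shrinks in the mutant bars, and Myc holds 22.5% to 47.8% of its family in mutant libraries and 7.10% to 9.63% in WT.

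Atf3, a bZIP factor induced by many kinds of stress, varied most of the 10 genes among lines of 1 genotype. It had 352 and 480.2 normalized counts in TMut, 709 and 1159 in TFoCa, and 218, 873 and 1094 in WT. WT replicate 1 was the lowest library of all, and the other WT libraries were above both TMut libraries. The log2 fold change was -0.53 (95% interval -1.99 to 0.93) in TMut and 0.61 (-0.85 to 2.07) in TFoCa against WT, and neither passed. Without WT replicate 1, the TMut value was -1.25 against WT and was called lower (adjusted p = 0.0183, limma), and the TFoCa value against WT was -0.11. The direction against WT thus rested on 1 library in TFoCa. Both TMut libraries lay below both TFoCa libraries, with a log2 fold change of -1.14 (95% interval -2.74 to 0.46). That difference did not pass (adjusted p = 0.230, limma) but was called without WT replicate 1 (adjusted p = 0.0265).

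Egr1 rose in both mutant genotypes. It had 16056 and 17018 normalized counts in TMut, 13079 and 13839 in TFoCa, and 9618, 7266 and 6786 in WT. The genotypes formed steps without overlap, with TMut highest and WT lowest. On the log2 scale Egr1 rose by 1.08 ± 0.15 in TMut (adjusted p = 0.00134, limma) and by 0.79 ± 0.15 in TFoCa (adjusted p = 0.0202) against WT, or 2.10-fold and 1.71-fold in the means. The TFoCa call was lost without WT replicate 2 (adjusted p = 0.081), WT replicate 3 (0.0696) or TFoCa replicate 2 (0.0587), with log2 values of 0.69 to 0.75. TMut and TFoCa differed by 0.30 ± 0.16, which did not pass (adjusted p = 0.193).

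The other EGR genes encode zinc finger factors that bind the same GC-rich site, and Egr2 and Egr3 also rose in both genotypes. Egr2 had 496 and 567 normalized counts in TMut, 399 and 396 in TFoCa, and 179, 138 and 150 in WT. Its log2 fold change was 1.77 ± 0.19 in TMut and 1.36 ± 0.19 in TFoCa against WT (adjusted p = 0.000487 and 0.00827, limma). Egr3 changed by 1.43 ± 0.17 and 1.17 ± 0.17 in the same comparisons (adjusted p = 0.000725 and 0.00935). Per kilobase, Egr1 still made up 86.4% to 90.1% of the summed family in every library, while Egr4 was at most 0.587% and passed in neither comparison.

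Of 17 textbook EGR1 targets, 12 rose and 1 fell in TMut against WT, and 7 rose and 0 fell in TFoCa against WT. Over all genes, 18.4% rose and 20.4% fell in TMut, and 5.25% rose and 3.52% fell in TFoCa. The median log2 fold change of the list was 1.20 in TMut and 0.64 in TFoCa, while that of all genes was 0.00 and -0.02. Thbs1, which encodes the matrix protein thrombospondin 1, rose by 2.96 ± 0.13 in TMut and 1.37 ± 0.13 in TFoCa. Pdgfb, a growth factor gene, had 566 and 443 normalized counts in TMut, 364 and 386 in TFoCa, and 65.1, 67.2 and 63.3 in WT. Its mutant levels were far above a tight WT group, with log2 fold changes of 2.92 ± 0.21 and 2.51 ± 0.21 (adjusted p = 0.000131 and 0.00207, limma). F3, the gene of tissue factor, rose by 1.81 ± 0.13 in TMut, and Tgfb1 and Icam1 rose by 1.65 ± 0.16 and 1.43 ± 0.16 in TFoCa. Nab2, the corepressor in the EGR1 feedback loop, had 6031 and 6763 normalized counts in TMut, 3875 and 3323 in TFoCa, and 1919.7, 1661 and 1528 in WT, with log2 fold changes of 1.91 ± 0.13 and 1.08 ± 0.13 against WT. Vegfa, which is on the AP-1 list too, was the 1 listed target that fell in TMut, by 1.30 ± 0.26 on the log2 scale (adjusted p = 0.00649), a call lost without TMut replicate 2 (adjusted p = 0.0509). With 1 library left out, 10 to 12 targets rose in TMut and 7 to 9 in TFoCa, and 0 to 2 fell.

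Myc rose in both genotypes and further in TMut. It had 2334 and 3132 normalized counts in TMut, 1661 and 1675 in TFoCa, and 775, 602 and 641 in WT. The genotypes did not overlap in any pair. Myc rose by 2.01 ± 0.16 on the log2 scale in TMut (adjusted p = 0.000194, limma) and by 1.32 ± 0.16 in TFoCa (adjusted p = 0.00558) against WT, or 4.06-fold and 2.48-fold in the means. TMut exceeded TFoCa by 0.70 ± 0.18 (adjusted p = 0.0212). That call was lost without TFoCa replicate 1 (adjusted p = 0.0568), TFoCa replicate 2 (0.0532) or TMut replicate 2 (0.48, adjusted p = 0.123).

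Mycl, a close relative, moved the other way. It had 1124 and 724 normalized counts in TMut, 2844 and 3196 in TFoCa, and 5229.6, 5232 and 5434 in WT. Mycl fell by 2.55 ± 0.18 on the log2 scale in TMut (adjusted p = 0.000128, limma) and by 0.81 ± 0.18 in TFoCa (adjusted p = 0.0299), a call lost whenever any 1 WT or TFoCa library was left out (adjusted p of 0.0536 to 0.1). Mycn, the MYC gene best known from neural progenitors, had 2884 and 3353 normalized counts in TMut, 2388 and 4174 in TFoCa, and 4325, 5013 and 5144 in WT. All mutant libraries were below WT, but its log2 fold changes of -0.63 ± 0.22 and -0.61 ± 0.22 did not pass (adjusted p = 0.0544 and 0.131). Per kilobase the summed family was 2398 and 2801 in TMut, 2416 and 3190 in TFoCa, and 3443, 3627 and 3750 in WT. Within it Myc held 41.6% and 47.8% in TMut, 29.4% and 22.5% in TFoCa, and 9.63%, 7.10% and 7.31% in WT. Mycl held 13.4% and 7.38% in TMut, 33.6% and 28.6% in TFoCa, and 41.2% to 43.4% in WT, and Mycn held 37.0% to 51.7% in all libraries.

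The mutant genotypes differed in the MYC target list, which holds genes of ribosome production and of nucleotide and polyamine synthesis. Of 30 targets, 15 rose and 0 fell in TMut against WT, with a list median of 0.52. In TFoCa against WT 0 rose and 2 fell, with a median of -0.21. TMut against TFoCa gave 18 higher and 0 lower, with a median of 0.71, where 17.3% of all genes were higher and 18.5% lower. Nop16, a nucleolar protein gene, had 3003 and 3266 normalized counts in TMut, 1567 and 1585 in TFoCa, and 1906, 1846 and 1655 in WT. TMut was above both other groups, by 0.80 ± 0.11 against WT (adjusted p = 0.00111, limma) and 0.99 ± 0.12 against TFoCa (adjusted p = 0.00185). Nop2, Bop1 and Mrto4, all ribosome assembly genes, rose in TMut against WT by 0.91 ± 0.16, 0.70 ± 0.13 and 0.58 ± 0.11. Fbl, which encodes the nucleolar RNA methyltransferase fibrillarin, and the cell cycle kinase gene Cdk4 fell in TFoCa by 0.53 ± 0.11 and 0.39 ± 0.10 on the log2 scale (adjusted p = 0.0242 and 0.0480). Neither was called when any 1 WT library was left out, and 0 to 4 targets then fell in TFoCa over the 7 such fits. The TMut count against WT was 4 when TMut replicate 2 was left out, 9 for WT replicate 1 or 3 and 10 for WT replicate 2, with 0 fallen in every case. TMut against TFoCa gave 12 to 26 higher and 0 lower in the same fits, with 12 when TFoCa replicate 1 or TMut replicate 2 was left out. In the fit of all 7 libraries, 18.4% of all genes rose and 20.4% fell in TMut against WT. The shares in TFoCa against WT were 5.25% and 3.52%. Of 15 heat shock genes, 7 rose and 1 fell in TMut against WT, and 0 rose and 1 fell in TFoCa against WT. The 1 that fell in TMut was Dnajb4, by 1.54 ± 0.21 on the log2 scale, and the 1 in TFoCa was Hsp90aa1, by 0.85 ± 0.21 (adjusted p = 0.0451), a call lost without any 1 WT or TFoCa library. Hspd1 is on both lists, and whether the lists moved alike was not tested. The part of the heat shock genes in the MYC target counts was not tested.

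In the network around MYC, 12 genes were tested. In TMut against WT 2 rose and 4 fell, where 18.4% of all genes rose and 20.4% fell, so these counts lie near those shares. In TFoCa against WT 0 rose and 2 fell, where 5.25% of all genes rose and 3.52% fell. The list medians were -0.32 in TMut and -0.08 in TFoCa. With 1 library left out these were 0 to 3 and 3 to 6 in TMut, and 0 to 1 and 0 to 1 in TFoCa. Max, the obligate partner of MYC, rose by 0.47 ± 0.11 in TMut (adjusted p = 0.0105, limma), a call lost without TMut replicate 2 (adjusted p = 0.0778). Mxi1 and Mxd3 encode repressors that compete for MAX. In TMut they fell by 0.73 ± 0.11 and 0.80 ± 0.17 on the log2 scale. Mxd4, of the same family, rose by 0.74 ± 0.22 in TMut (adjusted p = 0.0297), and that call was lost without WT replicate 2 or 3 or either TMut library. The other genes that fell in TMut were Mycl and Mlxip. Mlxip fell by 0.32 ± 0.10 on the log2 scale (adjusted p = 0.0413) and was not called without any 1 WT or TMut library. In TFoCa the genes that fell were Mycl and Mxd3, and Mxd3, which fell by 0.69 ± 0.17 there (adjusted p = 0.0484), was not called when any 1 of the 7 libraries was left out.

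The AP-1 target list holds genes of proteases, their inhibitors, growth factors and cytokines that AP-1 is known to activate. Of 27 tested, 21 rose and 1 fell in TMut against WT, and 17 rose and 2 fell in TFoCa against WT. The list medians were 2.68 and 1.91 on the log2 scale. Over all genes, 18.4% rose and 20.4% fell in TMut, and 5.25% rose and 3.52% fell in TFoCa. Ptgs2, the inducible cyclooxygenase, had 2807 and 2221 normalized counts in TMut, 1564 and 2058 in TFoCa, and 73.7, 94.4 and 136 in WT. Every mutant library was over 10 times any WT library. The log2 fold changes were 4.65 ± 0.27 and 4.18 ± 0.27 (adjusted p = 7.14e-05 and 0.00124, limma). Timp1, an inhibitor of matrix metalloproteases, rose by 3.27 ± 0.14 in TMut and 2.35 ± 0.14 in TFoCa. Spp1, which encodes osteopontin, had 93244 and 86228 normalized counts in TMut, 10181 and 11290.2 in TFoCa, and 1429, 2380.2 and 2357 in WT, so that TMut exceeded TFoCa by 3.06 ± 0.24 (adjusted p = 0.00116). Plau, the urokinase gene, rose by 3.74 ± 0.22 in TMut, and Tnc, the gene of the matrix protein tenascin C, rose by 2.67 ± 0.23 in TFoCa. The 2 that fell in TFoCa were the metallothionein genes Mt1 and Mt2, by 1.92 ± 0.47 and 3.07 ± 0.56 on the log2 scale (adjusted p = 0.0477 and 0.0173), and neither was called when any 1 WT library or TFoCa replicate 1 was left out. Vegfa was the 1 that was lower in TMut, against WT and against TFoCa.

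TMut against TFoCa gave 12 AP-1 targets higher and 1 lower, where 17.3% of all genes were higher and 18.5% lower. Beside Spp1, Plau (2.06 ± 0.24) and the chemokine gene Ccl2 (2.78 ± 0.38) were among those with the smallest adjusted p values. With 1 library left out, 20 to 22 rose in TMut and 13 to 17 in TFoCa against WT, 8 to 13 were higher in TMut than in TFoCa, and 0 to 2 were lower in any comparison. The 8 came without TMut replicate 2. Many of these proteins are made by mesenchymal cells. Of 21 mesenchymal markers, 11 rose and 4 fell in TMut against WT, where 18.4% of all genes rose and 20.4% fell. In TFoCa against WT 13 rose and 0 fell, where 5.25% of all genes rose and 3.52% fell. The 13 became 6 to 7 without a WT library. Fn1, the fibronectin gene, rose by 2.11 ± 0.12 and 1.76 ± 0.12. The part of the marker genes in the AP-1 target counts was not tested.

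**Figure D4:**
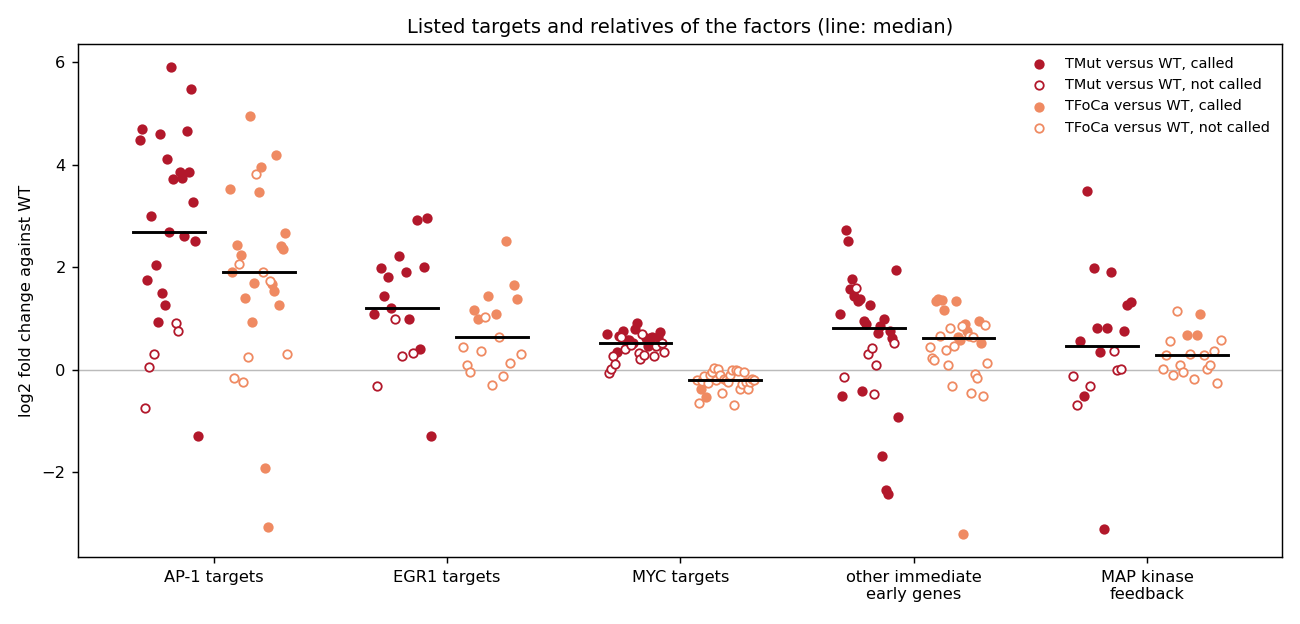
Log2 fold changes against WT of the genes on 5 lists, in TMut (left of each pair) and TFoCa (right), with a point per gene and a line at the list median. Filled points were called at adjusted p under 0.05. The AP-1 target medians are 2.68 and 1.91, and the MYC target medians lie on either side of 0, at 0.52 in TMut and -0.21 in TFoCa.

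Of 30 other immediate early genes, 17 rose and 6 fell in TMut against WT, where 18.4% of all genes rose and 20.4% fell. In TFoCa against WT 11 rose and 1 fell, where 5.25% of all genes rose and 3.52% fell. The counts that fell thus lie near the shares over all genes. The list medians were 0.80 in TMut and 0.61 in TFoCa. In TFoCa, 5 were higher without WT replicate 2 and 6 without WT replicate 3, and in TMut 3 were lower without TMut replicate 2. Ccn1 and Ccn2 encode secreted matrix-associated proteins controlled by SRF and YAP. In TMut they rose by 2.72 ± 0.23 and 2.52 ± 0.21 (adjusted p = 0.00022 and 0.00021, limma). Phlda1 and Klf6 rose in TFoCa by 0.95 ± 0.10 and 0.76 ± 0.10, and Ier5l rose in TMut by 1.26 ± 0.10. Klf2, a zinc finger gene, had 860.4 and 2434 normalized counts in TMut, 195 and 240 in TFoCa, and 1601, 3295 and 1550 in WT. Only the TFoCa libraries stood apart, by -3.21 ± 0.47 against WT (adjusted p = 0.00933), and in the same libraries 8 of 8 pluripotency markers fell. Whether these go together was not tested.

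The kinases and cofactors that act upstream of these genes were examined next. Of 21 genes for ERK, JNK and p38 kinases with SRF and its cofactors, 8 rose and 2 fell in TMut against WT. In TFoCa against WT 1 rose and 0 fell, with list medians of 0.31 in TMut and 0.02 in TFoCa. Over all genes, 18.4% rose and 20.4% fell in TMut, and 5.25% rose and 3.52% fell in TFoCa. The TFoCa counts thus lie near those shares. Elk3, an ETS factor that binds with SRF, had 3916 and 4144 normalized counts in TMut, 1998 and 1769 in TFoCa, and 964, 956 and 969.8 in WT. It was the 1 listed gene that rose in TFoCa, with log2 fold changes of 2.06 ± 0.10 in TMut and 0.96 ± 0.10 in TFoCa (adjusted p = 4.65e-05 and 0.00319, limma). TMut exceeded TFoCa by 1.10 ± 0.11 (adjusted p = 0.00157). Mapk10, the neuronal JNK gene, fell by 3.07 ± 0.30 on the log2 scale in TMut, where 11 of 12 neuronal markers also fell, and Mapk8, the gene of JNK1, fell by 0.61 ± 0.10. Map2k3, a p38 activator, rose in TMut by 1.03 ± 0.14. The number higher in TMut was 4 without TMut replicate 2 and 3 without WT replicate 2 or 3, and in TFoCa it was 3 without TFoCa replicate 1.

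Of 18 feedback inhibitors of MAP kinases, 10 rose and 2 fell in TMut against WT, and 3 rose and 0 fell in TFoCa against WT, the last count of genes that rose being 1 without WT replicate 3. The list medians were 0.46 and 0.29. Over all genes, 18.4% rose and 20.4% fell in TMut, and 5.25% rose and 3.52% fell in TFoCa. Dusp2 and Dusp5, nuclear phosphatases that switch off ERK, rose in TMut by 3.48 ± 0.30 and 1.99 ± 0.19 (adjusted p = 0.000227 and 0.000321, limma). Dusp6, the cytoplasmic ERK phosphatase, had 11273 and 12457 normalized counts in TMut, 10864 and 10679 in TFoCa, and 5962, 7539 and 6885 in WT. It was higher in every mutant library, and its change of 0.67 ± 0.12 in TFoCa (adjusted p = 0.0149) was lost without WT replicate 3 (adjusted p = 0.0572). Dusp8, a phosphatase of JNK and p38, fell by 3.11 ± 0.27 on the log2 scale in TMut, and Dusp16, of the same group, by 0.51 ± 0.11. Nab1, a corepressor of EGR factors, was the third that rose in TFoCa, by 0.67 ± 0.16 (adjusted p = 0.0389), and was not called when any 1 WT library or TFoCa replicate 2 was left out.

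Among 14 other bZIP partners and modulators of AP-1, 4 rose and 2 fell in TMut against WT and 2 rose and 0 fell in TFoCa against WT, with list medians of 0.29 and 0.36. For a list this short these counts lie near the shares over all genes, which were 18.4% higher and 20.4% lower in TMut and 5.25% and 3.52% in TFoCa. Nfe2l2, which encodes the oxidative stress factor NRF2, rose by 1.23 ± 0.10 in TMut and 0.76 ± 0.10 in TFoCa (adjusted p = 0.000217 and 0.00778, limma). Creb1 and Atf2, which bind cyclic AMP elements, fell in TMut by 0.88 ± 0.14 and 0.49 ± 0.09 on the log2 scale. The remaining TFoCa call, of Mafg, was 0.42 ± 0.10 (adjusted p = 0.0447) and was lost in 6 of the 7 fits that left out 1 library. In those fits 2 to 5 of the list rose in TMut and 1 to 3 in TFoCa.

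Among lines of 1 genotype, the genes differed widely in how much they varied. The pooled standard deviation of the log2 values was 0.94 for Atf3, 0.58 for Fosl1, 0.46 for Fos and 0.45 for Fosb. It was 0.28 for Junb, 0.24 for Fosl2, 0.22 for Jun, 0.20 for Myc, 0.19 for Egr1 and 0.16 for Jund, where the median of 13198 genes with a mean of 100 or more was 0.17. Of those genes, 98.6% varied less than Atf3 and 89.8% less than Fos, against 57.4% for Egr1 and 46.1% for Jund. The 4 most variable members were thus 3 of the Fos family with Atf3. The standard errors of their log2 fold changes were 0.32 to 0.69, against 0.13 to 0.22 for the other 6. Fosl1 had only 6 to 46 reads per library and did not reach the mean of 100 set for the median above. The part of its low counts in its spread was not tested. In WT, 6 of the 10 genes were highest in replicate 1 and lowest in replicate 3, as were 9 of 30 other immediate early genes and 20.0% of all genes tested.

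For 5 of the genes, the 3 other genes with the most similar profile were found by the root mean square difference of log2 values, centred on each gene's mean, over the 7 libraries and 13189 candidates. For Fosl2 these were Casp8 (0.13), Runx1 (0.19) and Egfr (0.19). Egfr had 2558 and 2019 normalized counts in TMut, 1649 and 2083 in TFoCa, and 570, 574 and 657 in WT. For Egr1 they were Ralb (0.09), Erbb2 (0.10) and Plekho2 (0.11), and for Myc they were Ephx1 (0.13), Egr2 (0.13) and Kcnq5 (0.15). Arhgap42 (0.05), Hes1 (0.08) and Fam102b (0.08) lay nearest to Jun, and Mospd3 (0.14), B230307C23Rik (0.15) and Acaa1a (0.15) nearest to Fos. The points of such a profile share 3 genotypes, so the likeness is a description.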

How the data were processed

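Gene-level RNA-seq of 7 libraries was analysed, 1 per line. Reads were processed with Trim Galore 0.6.5, STAR 2.7.3a, SAMtools and featureCounts on the mm39 build and scaled with DESeq2, per the submitters' processing notes; the settings, annotation and strand rule are not given in the sources used here. The deposited signal is normalized counts, that is, gene counts divided by 1 size factor per library. Multiplying by that factor gave whole reads for 100% of values within a tolerance of 0.001, from 33340167 to 62545457 reads per library; between 70.3% and 79.3% of counts from 1 to 20 were even, and whether both mates of a pair were counted was not tested. The smallest read sum of any listed gene was 71.

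Genes with a normalized count of at least 10 in at least 2 libraries (18134 of 18145) were tested on log2(normalized count + 1) with limma 3.58.1 (R 4.3.3), with an intensity trend and all genotypes in 1 model (4 residual degrees of freedom); fold changes are on that scale, which understates changes of low genes. The script was tested on simulated data. Alternatives were other pseudocounts, filters, scalings and fits, a replicate block, tests on the recovered reads with limma-voom, edgeR 4.0.16 and DESeq2 1.42.0, and each library left out in turn. With 1 library left out of a genotype with 2, the lone library was assumed to vary like the others.

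The members and lists were chosen with earlier results of these data known. Named were all 10 members and, of each list, up to 4 genes with the smallest adjusted p in the comparison described; Egr3, Egr4, Vegfa, Mt1, Mt2, Dusp16, Nab1, Mlxip, Dnajb4 and Hsp90aa1 were added after their values were seen, and some genes the rule names are not reported here. Lists share some genes. Transcript lengths and exon overlaps came from GENCODE vM21 (GRCm38), another build than the counts. Replicate numbers of the genotypes are shared in the labels, but deviations of same-numbered libraries correlated by only 0.02 to 0.18 and nothing ties the numbers, so they were not used as pairs.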

Additional observations from a re-analysis of the deposited data

How the results depend on the processing

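Against WT, the counts of members called stayed within 1.5 times the reported ones under every alternative run. In TMut against TFoCa the count of 2 became 0 at adjusted p under 0.01 and 0 to 3 with 1 library left out; it was 0 without TFoCa replicate 2 or TMut replicate 2 and 1 without TFoCa replicate 1. Fosl2 and Myc in both mutants, and Junb and Egr1 in TMut, were called against WT in all 20 alternatives with a value. Fosl1 in TMut was not tested at a mean of 50 or more. Leaving out 1 library turned the sign of some uncalled changes. In TFoCa against WT the lowest and highest log2 values were -0.58 and 0.29 for Fos, -0.56 and 0.52 for Fosb, -0.33 and 0.021 for Jund, and -0.11 and 1.05 for Atf3. In TMut against TFoCa they were -0.79 and 0.28 for Fosb, -0.33 and 0.20 for Fosl2, and -0.34 and 0.015 for Jund. Fosb in TFoCa against WT was also above 0 with TMM factors (0.0035), edgeR (0.073), DESeq2 (0.051) and limma-voom (0.0098); the cause was not tested.

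With the replicate number as a block, the count of members called in TMut against TFoCa was 1 (Junb), as Myc gave an adjusted p of 0.0577, and Egr1 in TFoCa against WT gave 0.0879. Over all genes the block called 363 higher and 192 lower in TFoCa against WT, where the fit without it called 952 and 638. TFoCa replicate 2 and TMut replicate 1 correlated best with WT replicate 3 (0.078 and 0.11), which has no mutant library of its number. Pairs of the same number all correlated above 0 (0.019 to 0.18). In a genotype of 2 libraries the deviations mirror each other, so these values cannot decide whether the numbers are pairs. In TFoCa against WT, DESeq2 on the recovered reads called 1689 higher and 1258 lower. Without 1 WT library the counts there were 375 to 510 higher and 120 to 224 lower. In TMut against WT the counts over all genes were 3344 and 3699, against 2146 and 2474 with the block and 1934 and 2395 without TMut replicate 2. In TMut against TFoCa they were 3141 and 3350, against 1647 and 1827 when only these genotypes were fitted and 1282 and 1882 without TMut replicate 2. The depth limits Fosl1 most, with 6 to 46 reads per library.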
